A study of Homo sapiens with 6 samples.

Results

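The collagen chain genes are the protein-coding genes whose symbol is COL, a type number, A and a chain number, such as COL1A1. The deposited table held 44 of them among its 58302 rows, and all 44 are accounted for below. They were split into 11 fibrillar chains, 6 basement membrane chains of type IV and 27 other chains. RNA was sequenced in 6 libraries of Hs766T, an established tumour cell line of human pancreatic ductal adenocarcinoma. The sample titles spell the line HS7666T, and the cell line label and the design text Hs766T. The DDX18 group (genotype ex-DDX18) held 3 libraries of cells with raised DDX18, an RNA helicase of the nucleolus. The control group held 3 libraries labelled plvx with the genotype WT. Both groups are the same line, and whether each is a single clone or a pool, and whether its 3 libraries came from separate cultures, is not given in the sources used here. P-values therefore measure the spread between these libraries, which may be technical. The comparison addresses what changes in these cells when DDX18 is abundant.

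Collagens are extracellular proteins in which chains wind into a triple helix in the endoplasmic reticulum, from identical or from different chains. Fibrillar collagens such as types I, III and V form the cable-like fibrils of connective tissue. Type IV forms the sheet-like network of basement membranes, and other types coat fibrils, anchor basement membranes or span the cell membrane. Pancreatic ductal adenocarcinoma is known for a dense collagen-rich stroma, most of it laid down by fibroblasts and stellate cells, and cultured tumour cells make collagen chains of their own.

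The libraries held 15911875 to 16207995 counts each, and collagen chain genes took 301987 of the 96248916 counts in all. DDX18 itself measured 187.2, 197.3 and 176.9 CPM (counts scaled to a common library size after TMM) in the DDX18 libraries and 89.4, 82.4 and 98.3 CPM in the controls, a 2.08-fold difference with an adjusted p of 0.00982 (edgeR, quasi-likelihood test, adjusted over all genes tested). The adjusted p was 0.0544 without DDX18 replicate 2 and 0.0643 without control replicate 2, so the call does not hold without either. Of the epithelial markers, KRT8, KRT18 and KRT7 averaged 2025, 951 and 605 CPM, EPCAM 6.22 and CDH1 2.14 CPM, while the ductal keratin KRT19 had 4 counts over the 6 libraries. Of 11 fibroblast and stellate markers, PDGFRA and POSTN were at 0 and LUM had 1 count, while FBLN1, PDGFRB and DCN averaged 283, 98.3 and 10.5 CPM. The 4 acinar markers were at 0, as were PECAM1, KDR, CD3E and LYZ, while the endothelial VWF averaged 5.45 CPM and the immune CD68 3.77 CPM, both with overlapping groups. The fibroblast list summed to 394.1 to 423.6 CPM with DDX18 and to 380.7 to 393.1 CPM in the controls, without overlap. FBLN1, with overlapping groups, and PDGFRB, at 105.0 and 91.6 CPM without overlap (adjusted p = 0.841 by edgeR), make up most of that sum. Of the 7 tested members 4 had a positive fold change and 3, ACTA2, RGS5 and DES, a negative one. The part of such markers in the collagen values was not tested.

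No collagen chain gene differed between the groups past the threshold. Of the 44 genes, 20 had enough counts to be tested, 16 had counts too low to test and 8 had no count in any library. Of the 20 tested genes, 0 had an adjusted p under 0.05 by edgeR, and DESeq2 and limma-voom also called 0. Over all 15144 genes tested, edgeR called 0.0528%. At an unadjusted p under 0.05 there were 4 collagen genes, COL6A2 higher with DDX18 and COL1A1, COL15A1 and COL4A3 lower. Of all tested genes 5.69% had such a p, 2.5% higher and 3.19% lower with DDX18. The groups did not overlap in 6 of the 20, with DDX18 above in 2 and below in 4, and in 11.5% of all tested genes, with 5.83% above and 5.71% below. The median log2 fold change was 0.01 for the 20 genes and 0.00 for all genes, with 11 of the 20 positive against 49.8% of all genes. COL6A2 entered the test only through its DDX18 libraries, so its direction was fixed by the filter on low counts.

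Levels of different genes were compared as CPM per kilobase (kb) of the longest coding transcript in GENCODE 29. On this scale the genes with a mean of at least 1 CPM, 16 in number, ran from 151.5 CPM per kb for COL4A2 to 1.28 CPM per kb for COL4A3. COL4A2 stood at the 97.9th percentile of all protein-coding genes and COL5A1, at 100.3 CPM per kb, at the 96.4th. COL4A1 followed at 48.2 CPM per kb, and the libraries of these leading genes did not overlap with each other or with the next gene. COL7A1 (30.8), COL6A1 (24.1), COL15A1 (20.7), COL9A3 (19.1), COL18A1 (15.3) and COL12A1 (14.2 CPM per kb) came next, and each overlapped its neighbour in this order. COL1A1 (9.06) and COL4A5 (6.62 CPM per kb) lay below them and overlapped each other. COL9A2 (3.91), COL16A1 (2.64), COL4A4 (1.86), COL4A6 (1.51) and COL4A3 were the lowest and again overlapped from neighbour to neighbour. The order of the leading genes depends on the length used: COL4A2 was on average 1.51 times COL5A1 per kb of the longest coding transcript, 0.67 times per kb of merged exons and 1.81 times in the deposited FPKM.

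**Figure D1:**
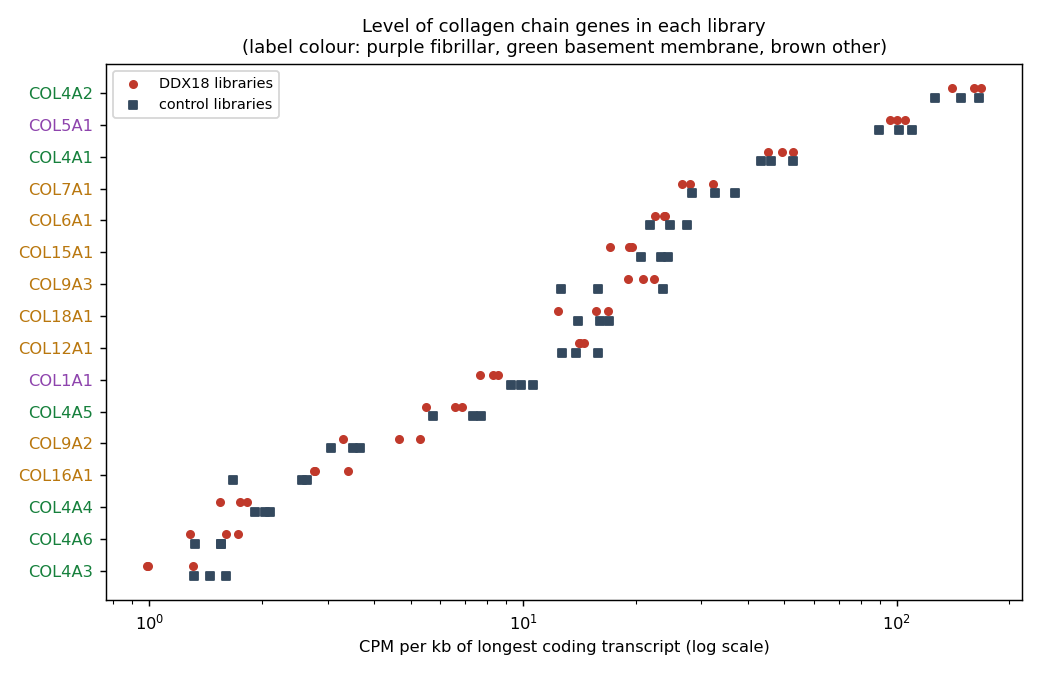
Level of the 16 collagen chain genes with a mean of at least 1 CPM, as CPM per kb of the longest coding transcript on a log axis, with 1 point per library (red circles DDX18, dark squares control). Levels span from 151.5 CPM per kb for COL4A2 to 1.28 for COL4A3 (means of 6 libraries), and the groups overlap for most genes.

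The fibrillar class was carried by COL5A1 and COL1A1, whose usual partner chains were nearly or fully absent. COL5A1 encodes the main chain of type V collagen, which sits inside type I fibrils and sets their diameter. It measured 811.2, 847.7 and 892.5 CPM with DDX18 and 932.1, 859.4 and 757.2 CPM in the controls. The control range enclosed the DDX18 range. The fitted ratio of DDX18 to control was 1.00-fold, and its 95% interval ran from 0.869 to 1.15. COL5A2, its common partner in the type V heterotrimer, had 0, 4 and 0 counts with DDX18 and 7, 2 and 6 in the controls. COL5A3, a further type V chain, had 12 to 18 counts in every library. Over the 6 libraries COL5A1 stood 3590 times above COL5A2 and 633 times above COL5A3 per kb. By library the ratio to COL5A3 ran from 527.2 to 849.9, and from 436.3 to 703.5 per kb of merged exons.

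COL1A1, the major chain of type I collagen, measured 57.7, 51.5 and 56.0 CPM with DDX18 and 71.3, 66.5 and 62.6 CPM in the controls. Every DDX18 library lay below every control. The ratio was 0.824-fold with an interval of 0.718 to 0.947, an unadjusted p of 0.0128 and an adjusted p of 0.814 (edgeR), so it did not pass. COL1A2, which joins COL1A1 in the type I heterotrimer, had 0 counts in all 6 libraries. With 3 counts over the 6 libraries as the limit that a count of 0 allows, COL1A1 was at least 1570-fold higher than COL1A2 per kb. Such limits cover counting error only. A type I homotrimer made of COL1A1 alone is known from embryonic tissue and from tumours, and protein was not measured here.

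The remaining fibrillar chains were at the edge of detection. COL3A1, the type III chain of elastic tissues, had 3, 2 and 0 counts with DDX18 and 7, 3 and 6 in the controls. COL3A1 and COL5A2 are neighbours on chromosome 2. COL2A1, the cartilage collagen, had counts only in control replicates 1 and 3 (3 and 4). COL11A2, a chain of type XI collagen, had 9 to 20 counts a library, while COL11A1 had 1 count in all. COL24A1 and COL27A1 had 27 and 22 counts over the 6 libraries. The intervals of the tested low chains were wide, from 0.607 to 1.98-fold for COL11A2 and from 0.689 to 1.71-fold for COL5A3. All 6 untested fibrillar chains with a count had the lower sum with DDX18: 4 against 15 counts for COL5A2, 5 against 16 for COL3A1, 0 against 7 for COL2A1, 9 against 18 for COL24A1, 8 against 14 for COL27A1 and 0 against 1 for COL11A1. Of all 16 untested collagen genes with a count, 10 had the lower sum with DDX18, 3 the higher and 3 equal sums. These sums were not tested and are not set beside the share over all untested genes, so no direction is read from them. With no filter on low counts, where such genes enter the fit, edgeR called 0 collagen genes.

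**Figure D2:**
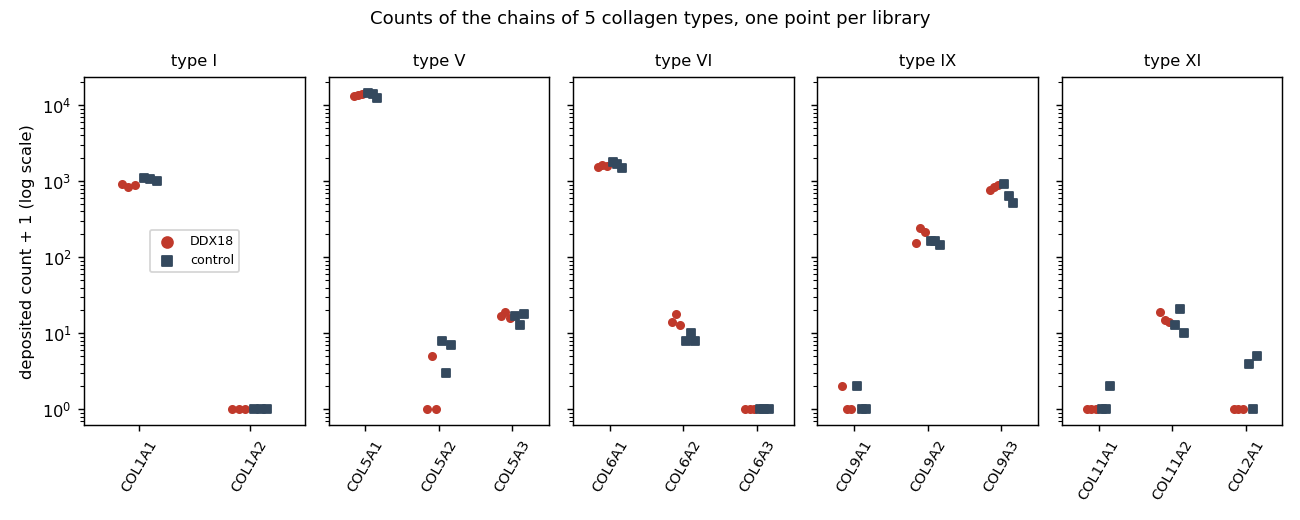
Deposited counts plus 1, on a log axis, of the chains of 5 collagen types, with 1 point per library (red circles DDX18, dark squares control). COL1A2 and COL6A3 sit at 0 counts in every library beside COL1A1 and COL6A1 with at least 826 counts, and COL5A2 stays at 7 counts or fewer beside COL5A1 at 12296 or more.

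All 6 basement membrane chains were expressed enough to be tested, and none passed. They are encoded as 3 head-to-head gene pairs that start close together on opposite strands: COL4A1 with COL4A2 on chromosome 13, COL4A3 with COL4A4 on chromosome 2, and COL4A5 with COL4A6 on chromosome X. COL4A1 and COL4A2 form the widespread type IV heterotrimer, whereas COL4A3, COL4A4 and COL4A5 form that of the kidney glomerulus and a few other sites. The stretches between the paired starts are shown because each lies before a RefSeq start of both genes of a pair whose levels are compared below. They are RefSeq sequence of GRCh38.p14, plus strand, with capitals marking the GC box (GGGCGG) and the CCAAT box on either strand. The TATA box (TATAAA) was also searched and has no match in these stretches. Gene starts in the deposited table differ, at 110305812 for COL4A2 and 227164565 for COL4A3. The first stretch therefore lies inside COL4A2 as deposited, and the second partly inside COL4A3.
COL4A1-COL4A2, chr13:110307158-110307283, all bases between the starts: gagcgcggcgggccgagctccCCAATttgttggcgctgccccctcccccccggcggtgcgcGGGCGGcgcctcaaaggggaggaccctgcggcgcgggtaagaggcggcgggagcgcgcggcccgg
COL4A4-COL4A3, chr2:227164489-227164623, all bases between the outermost starts: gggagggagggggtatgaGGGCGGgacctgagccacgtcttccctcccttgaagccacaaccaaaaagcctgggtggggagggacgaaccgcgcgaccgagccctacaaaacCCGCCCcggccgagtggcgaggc
COL4A6-COL4A5, chrX:108439588-108439837, the 250 bases before the COL4A5 start: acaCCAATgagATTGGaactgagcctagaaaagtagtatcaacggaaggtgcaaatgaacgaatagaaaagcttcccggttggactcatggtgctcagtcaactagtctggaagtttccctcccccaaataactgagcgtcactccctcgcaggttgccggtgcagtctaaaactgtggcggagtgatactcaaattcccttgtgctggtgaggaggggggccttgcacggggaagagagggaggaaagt
The stretch of the COL4A1-COL4A2 pair is 80.2% G and C with 20 CG dinucleotides in 126 bases. That of COL4A4-COL4A3 is 68.1% with 11 in 135 bases, and that of COL4A6-COL4A5 is 51.2% with 8 in 250 bases. The last is only a part of the bases between its starts, which lie 380 bases apart. A relation of these letters to level was not tested.

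COL4A2 measured 911.0, 1042 and 1089 CPM with DDX18 and 1075, 967.3 and 818.9 CPM in the controls. COL4A1 measured 299.9, 325.1 and 349.7 CPM with DDX18 and 348.8, 304.3 and 286.8 CPM in the controls. The groups overlapped for both, with ratios of 1.06-fold (0.887 to 1.28) and 1.04-fold (0.892 to 1.21). For both genes control replicate 3 was the lowest library and DDX18 replicate 3 the highest. The level ratio of COL4A2 to COL4A1 per kb stayed within 2.91 and 3.27 in the 6 libraries, and between 2.18 and 2.45 per kb of merged exons. The encoded heterotrimer holds more of the COL4A1 chain than of the COL4A2 chain.

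COL4A3 measured 8.0, 10.6 and 8.04 CPM with DDX18 and 11.8, 13.0 and 10.7 CPM in the controls. COL4A4 measured 15.5, 17.5 and 18.3 CPM with DDX18 and 20.4, 19.2 and 21.0 CPM in the controls. In both genes every DDX18 library lay below every control. The ratio was 0.753-fold for COL4A3 (0.584 to 0.970, unadjusted p = 0.0326, adjusted p = 0.853 by edgeR) and 0.845-fold for COL4A4 (0.713 to 1.00, unadjusted p = 0.0516, adjusted p = 0.860). DDX18 replicate 2 and control replicate 3 differed by little for COL4A3 (170 and 173 counts). The ratio of COL4A4 to COL4A3 per kb ran from 1.20 to 1.84 and overlapped between the groups. Per kb of merged exons it ran from 1.34 to 2.06.

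COL4A5 measured 44.4, 35.6 and 42.7 CPM with DDX18 and 47.6, 50.1 and 37.1 CPM in the controls. COL4A6, which joins COL4A5 in smooth-muscle and epidermal basement membranes, measured 8.68, 10.9 and 11.7 CPM with DDX18 and 10.5, 10.5 and 8.93 CPM in the controls. The groups overlapped in both, with ratios of 0.910-fold (0.728 to 1.14) and 1.04-fold (0.816 to 1.33). COL4A5 was 3.41 to 5.33 times COL4A6 per kb.

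Among the other chains, COL6A1 stood far above its partner chains. COL6A1, a chain of the beaded filaments that surround cells, measured 95.7, 101.9 and 100.9 CPM with DDX18 and 116.4, 104.8 and 92.4 CPM in the controls (0.952-fold, 0.817 to 1.11). Its partner COL6A2 had 13, 17 and 12 counts with DDX18 and 7, 9 and 7 in the controls. The COL6A2 groups did not overlap and the ratio was 1.81-fold with a wide interval of 1.06 to 3.09 (unadjusted p = 0.0331, adjusted p = 0.853 by edgeR). COL6A2 entered the test only through its DDX18 libraries, so the filter fixed this direction and the p-value is no support for it. COL6A3, the long chain that completes the type VI heterotrimer, had 0 counts in all 6 libraries, as did COL6A5, and COL6A6 had 4 counts. COL6A1 was 96.9, 78.5 and 109.2 times COL6A2 per kb with DDX18 and 210.8, 154.8 and 175.1 times in the controls. These ratios did not overlap, but they rest on the same few COL6A2 counts. COL6A1 was at least 8280-fold higher than COL6A3 with the same limit of 3 counts.

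COL7A1, the sole chain of the anchoring fibrils that tie epithelia to the tissue below, measured 247.2, 258.8 and 299.5 CPM with DDX18 and 341.1, 302.5 and 262.9 CPM in the controls. The groups overlapped (0.889-fold, 0.740 to 1.07). COL15A1 and COL18A1 encode the multiplexins, basement membrane collagens whose ends release the fragments restin and endostatin. COL15A1 measured 107.3, 93.8 and 105.6 CPM with DDX18 and 133.8, 113.6 and 128.6 CPM in the controls. All DDX18 libraries lay below all controls (0.815-fold, 0.705 to 0.943), with an unadjusted p of 0.0122, the smallest of the family, and an adjusted p of 0.811 (edgeR). COL18A1 measured 81.7, 111.3 and 102.9 CPM with DDX18 and 111.9, 105.7 and 92.5 CPM in the controls (0.954-fold, 0.777 to 1.17), and overlapped. Exons of COL18A1 share 1401 bases with SLC19A1 on the other strand, which averaged 1409.5 counts against 1616.2 for COL18A1, and reads of the pair cannot be told apart if strand was not used in counting.

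The fibril-associated collagens decorate fibrils of other types. COL12A1, the long fibril-associated chain of dense connective tissue, measured 166.0, 165.5 and 170.3 CPM with DDX18 and 149.3, 162.8 and 186.2 CPM in the controls (1.01-fold, 0.873 to 1.16). Its DDX18 libraries lay inside the control range. COL16A1 measured 15.9, 15.8 and 19.5 CPM with DDX18 and 14.7, 15.1 and 9.61 CPM in the controls. Its groups did not overlap (1.30-fold, 0.959 to 1.76, unadjusted p = 0.0812, adjusted p = 0.860 by edgeR), with control replicate 3 far below the other libraries.

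COL9A2 and COL9A3 encode chains of type IX, the collagen on cartilage fibrils. COL9A2 measured 9.43, 15.2 and 13.3 CPM with DDX18 and 10.5, 10.01 and 8.74 CPM in the controls (1.30-fold, 0.956 to 1.75). COL9A3 measured 47.7, 52.2 and 55.8 CPM with DDX18 and 59.3, 39.6 and 31.5 CPM in the controls (1.19-fold, 0.849 to 1.68). Control replicate 1 was the highest library for COL9A3 and control replicate 3 the lowest. The COL9A3 log2 fold change was 0.26 with all libraries, 0.55 without control replicate 1 and 0.07 without control replicate 3. COL9A1, the third type IX chain, had 2 counts in all.

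The rest of the class was silent or nearly so. COL8A1, a short-chain collagen of vessel walls, had 7 to 25 counts a library (0.762-fold, 0.367 to 1.58). The transmembrane collagens were at the edge: COL17A1, the hemidesmosome collagen of epithelia, had 23 counts over the 6 libraries and COL25A1 had 54, while COL13A1 and COL23A1 had none. COL26A1 had 41 counts, COL8A2 21, COL10A1 and COL28A1 6 each, COL14A1 4 and COL21A1 3. COL19A1, COL20A1 and COL22A1 had none.

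**Figure D3:**
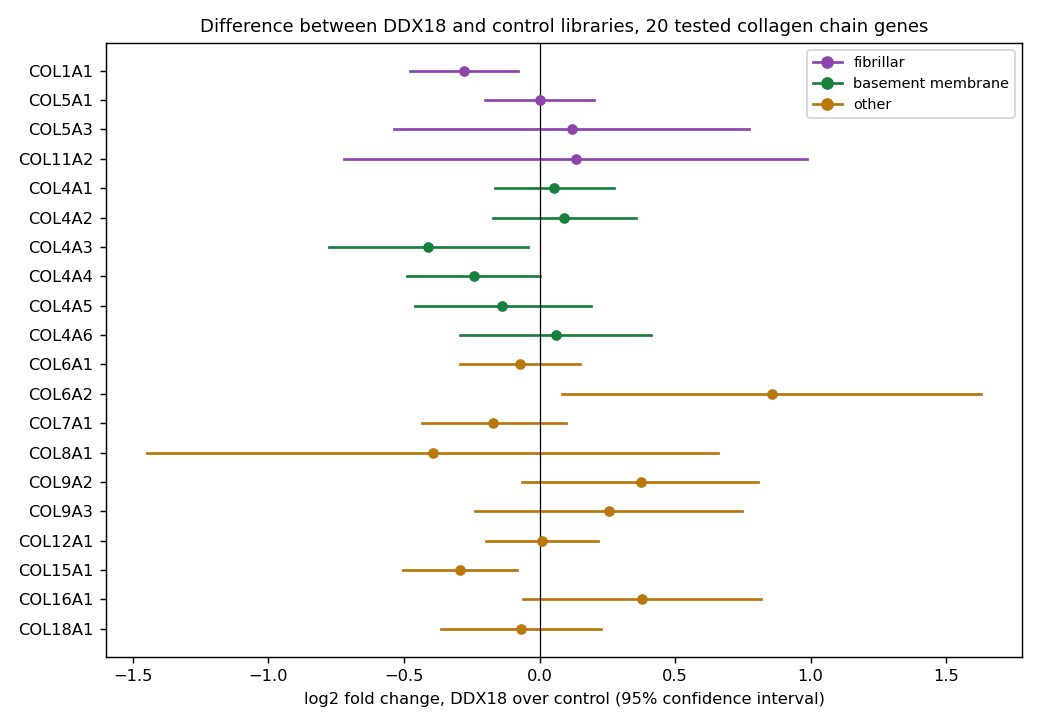
Log2 fold change of DDX18 over control libraries for the 20 tested collagen chain genes (points), with 95% confidence intervals (lines), coloured by class. None passed an adjusted p of 0.05, and intervals widen for the chains with few counts, such as COL8A1 and COL6A2.

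Summed over all 44 genes, collagen chains took 2933, 3162 and 3341 CPM with DDX18 and 3462, 3150 and 2822 CPM in the controls. The group means were 3145 ± 205 and 3145 ± 320 CPM (SD, n = 3), with the DDX18 libraries inside the control range. Basement membrane chains summed to 1416 ± 118 CPM with DDX18 and 1354 ± 166 CPM in the controls, fibrillar chains to 908.0 ± 40.0 and 919.6 ± 92.5 CPM, and other chains to 821.0 ± 48.7 and 871.1 ± 63.5 CPM. The ratios of these sums were 1.05, 0.987 and 0.942. The groups overlapped in each class. The basement membrane share of all collagen CPM was 43.9%, 45.6% and 45.5% with DDX18 and 43.7%, 43.3% and 41.9% in the controls. These shares did not overlap. Most of this class is COL4A2 and COL4A1, with means of 983.9 and 319.1 CPM, and the groups overlapped for both genes. The fibrillar share was 28.45% to 29.71% with DDX18 and 29.09% to 29.49% in the controls, with overlap. The share of other chains was 25.9% to 26.4% with DDX18 and 27.2% to 28.9% in the controls, without overlap. The class shares of a library add to 100%, so this is not a result separate from the basement membrane share. Among the other chains, the multiplexins summed to 188.9 to 208.4 CPM with DDX18 and 219.3 to 245.7 CPM in the controls. The fibril-associated chains summed to 239.2 to 259.1 and 227.5 to 236.0 CPM, and in neither case did the groups overlap. Of the multiplexins, the groups overlapped for COL18A1 and not for COL15A1. Most of the fibril-associated sum is COL12A1, with a mean of 166.7 CPM and overlapping groups (1.01-fold). COL9A2 and COL9A3 overlapped as well, and COL16A1 did not. The sums of the beaded filament, short-chain, transmembrane and remaining chains, and COL7A1 alone, overlapped between the groups. No test was made of these sums. The median log2 fold change of the tested genes was 0.06 for 4 fibrillar, -0.04 for 6 basement membrane and -0.03 for 10 other chains. The fibrillar median turned to -0.87 with no filter on low counts and to -0.13 at 5 CPM in 3 libraries, and to -0.01 and -0.09 without control replicates 2 and 3. The basement membrane median was 0.003 without control replicate 1. Leaving out DDX18 replicate 1 gave 0.11 for other chains, and leaving out DDX18 replicate 2 or control replicate 1 gave 0.01 and 0.003. The sign of each class median therefore depended on the setting.

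**Figure D4:**
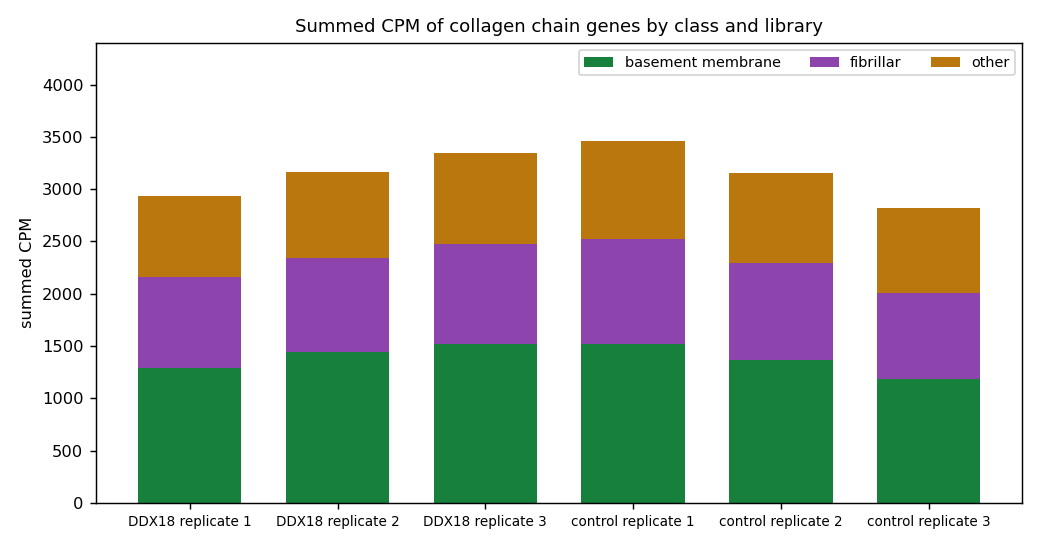
Summed CPM of the collagen chain genes in each library, stacked by class (green basement membrane, purple fibrillar, brown other). Totals run from 2822 CPM in control replicate 3 to 3462 CPM in control replicate 1, and the DDX18 libraries lie between them.

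In each group the same library was often the lowest. Control replicate 3 was the lowest control in 13 of the 16 genes with at least 1 CPM, and control replicate 1 the highest in 11. Over all genes of at least 1 CPM these libraries were lowest and highest among the controls in 35.8% and 34.9%. DDX18 replicate 1 was the lowest DDX18 library in 11 of the 16 genes, against 35.9% of all genes, and DDX18 replicate 3 in 0, against 33.3%. The genes share these libraries, so the counts describe the libraries and were not tested. COL12A1, COL15A1 and COL4A4 did not follow the pattern and were above their own means in control replicate 3 by 0.16, 0.19 and 0.18 on the log2 scale.

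**Figure D5:**
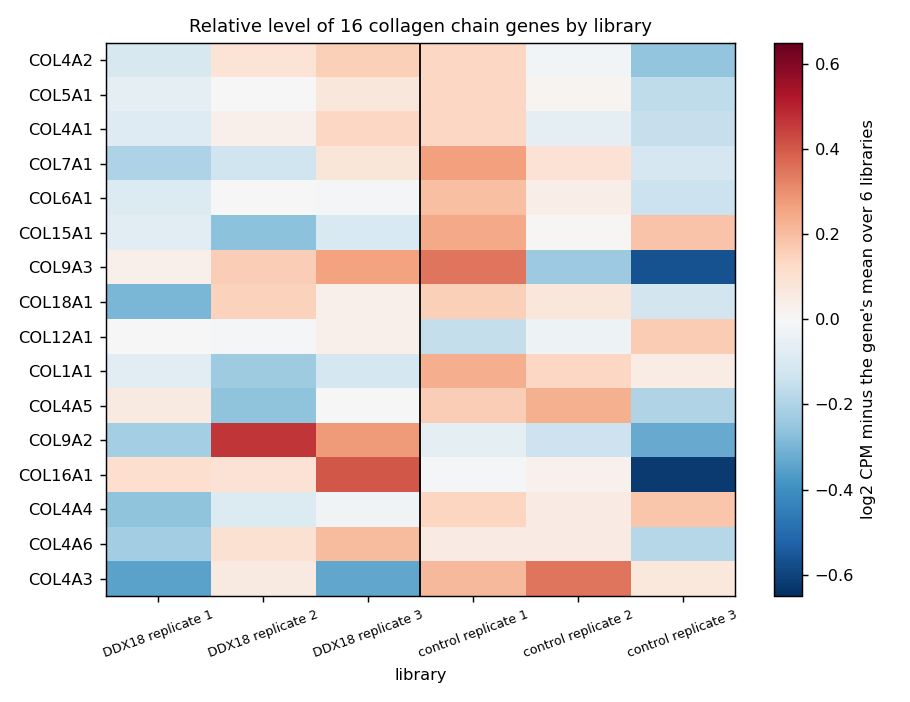
Log2 CPM minus the mean of the gene over the 6 libraries, for 16 collagen chain genes (rows, ordered by level) in each library (columns, DDX18 left of the line). Control replicate 3 is below the mean in most rows, down to -0.62 for COL16A1, and control replicate 1 is above it in most.

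Promoter windows from RefSeq, 250 bases before to 50 after a start on GRCh38.p14, were found for 32 of the 44 genes. COL1A1, COL6A1 and COL9A3 are among the genes without a window. For the 16 tested genes with a window, 17 of 22 windows (77.3%) held the GC box on either strand, a motif bound by Sp family factors. It was in 7 of 22 windows (31.8%) of the 16 untested genes and in 45.0% of all 35116 windows. The median G and C content was 69.7% for tested, 58.5% for untested and 58.7% for all windows. The median ratio of observed to expected CG dinucleotides was 0.732 for tested, 0.514 for untested and 0.579 for all windows. The CCAAT box was in 31.8% of both sets and in 34.6% of all windows. The TATA box was in 13.6% of the tested, 22.7% of the untested and 11.5% of all windows. Windows of 1 gene or of a head-to-head pair can overlap, and these matches are descriptions of letters. The 250 bases before the start of COL5A1, the fibrillar chain with the most counts, hold the GC box on the reverse strand at both marked places.
COL5A1, chr9:134641553-134641802, plus strand: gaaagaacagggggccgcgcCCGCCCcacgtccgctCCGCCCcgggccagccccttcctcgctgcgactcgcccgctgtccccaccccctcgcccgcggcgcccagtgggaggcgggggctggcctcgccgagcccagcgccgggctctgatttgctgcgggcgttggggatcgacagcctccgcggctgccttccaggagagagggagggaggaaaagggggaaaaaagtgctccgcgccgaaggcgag

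The genes that modify, export, cut, cross-link and bind collagens did not pass the threshold either. Of 77 such genes in 7 lists, 58 were tested and 0 were called by edgeR, DESeq2 or limma-voom. By edgeR 0.0528% of all genes were called. An unadjusted p under 0.05 was found for 8, with 6 higher and 2 lower with DDX18, beside 5.69% of all tested genes (2.5% higher, 3.19% lower). The median log2 fold change of the 58 was 0.02, with 32 positive. The signs in each list are counts to be read beside the 49.8% of all tested genes with a positive fold change, and members of a list share the libraries. Over all tested genes the groups did not overlap in 11.5%, with DDX18 above in 5.83% and below in 5.71%. Most genes named below have the smallest p of their list, so groups that do not overlap follow from that choice and are no result about the lists.

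Of the 13 tested genes for hydroxylating, glycosylating and isomerising enzymes of collagen and their partner subunits, 8 had a positive fold change. P3H2, a prolyl 3-hydroxylase that acts on type IV collagen, measured 131.3, 128.8 and 122.8 CPM with DDX18 and 102.8, 96.7 and 107.1 CPM in the controls. Its groups did not overlap (1.25-fold, 1.11 to 1.40, adjusted p = 0.596 by edgeR). P4HB, the disulfide isomerase subunit of prolyl 4-hydroxylase and the most counted member, averaged 524.2 ± 26.1 and 508.5 ± 38.4 CPM (SD, n = 3). P4HA3 and P3H1 averaged 7.20 and 87.9 CPM with DDX18 and 8.51 and 80.5 CPM in the controls, with P4HA3 below in every DDX18 library.

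Among 5 tested genes of propeptide cleavage, PCOLCE, a secreted enhancer of the C-propeptide cut, measured 17.3, 15.8 and 17.4 CPM with DDX18 and 11.1, 12.0 and 10.5 CPM in the controls. Its groups did not overlap and the ratio was 1.5-fold (1.26 to 1.79), with an adjusted p of 0.485 by edgeR and 0.0831 by DESeq2. PCOLCE2 and the protease FURIN averaged 27.7 and 347.1 CPM with DDX18 and 24.9 and 318.0 CPM in the controls. The fold change was positive in all 6 cross-linking genes (median log2 value 0.17), and in 49.8% of all tested genes. The lysyl oxidase LOXL2, at 238.4, 219.2 and 234.8 CPM with DDX18 and 219.1, 194.5 and 195.8 CPM in the controls, had groups that did not overlap (1.14-fold, adjusted p = 0.860 by edgeR). LOXL3 and the transglutaminase TGM2 averaged 3.67 and 55.8 CPM with DDX18 and 2.85 and 49.96 CPM in the controls, and the TGM2 groups did not overlap.

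Of 11 chaperones and export genes, 7 had a positive fold change. SEC24D, a coat protein of the vesicles that carry procollagen, averaged 31.7 and 26.0 CPM in the DDX18 and control groups (1.22-fold, adjusted p = 0.841 by edgeR). SEC13 averaged 121.3 and 103.4 CPM, and in both genes every DDX18 library lay above the controls. The collagen-binding isomerase FKBP10 averaged 87.0 and 103.7 CPM, with overlap.

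Of the 12 tested basement membrane partners of type IV collagen, 11 had a negative and 1 a positive fold change (median log2 value -0.08), beside 49.8% positive over all tested genes. HSPG2, the proteoglycan perlecan, measured 596.3, 543.8 and 571.2 CPM with DDX18 and 673.0, 679.7 and 597.8 CPM in the controls, and LAMC3, a laminin chain, averaged 207.9 and 233.7 CPM. The groups of both genes did not overlap, with adjusted p of 0.856 and 0.860 (edgeR). AGRN, the most counted partner, averaged 1103 ± 178 and 1255 ± 68.1 CPM (SD, n = 3), and LAMA3, the member with a positive fold change, 14.4 and 11.8 CPM.

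All 5 tested fibril partners had a positive fold change (median log2 value 0.22), beside 49.8% of all tested genes. This list shares DCN, LUM and POSTN with the fibroblast markers. TNC, the matrix glycoprotein tenascin-C, averaged 3.48 and 2.02 CPM (1.72-fold, 1.09 to 2.70, adjusted p = 0.841 by edgeR). THBS1, thrombospondin-1, averaged 109.8 and 94.3 CPM, FN1, fibronectin, 6.01 and 5.18 CPM, and FBN1, fibrillin-1 and the most counted member, 154.2 and 151.0 CPM. The groups did not overlap for TNC, THBS1 and FN1 and overlapped for FBN1. Of 6 tested collagen receptors, 5 had a negative fold change. The integrin chains ITGA11, ITGA2 and ITGB1 averaged 2.58, 5.6 and 238.2 CPM with DDX18 and 3.75, 7.71 and 258.1 CPM in the controls, with overlapping groups.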

How the data were processed

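Collagen members, classes and pathway lists were chosen with earlier results of these data known. The authors deposited 1 table with a raw count and an FPKM column per library and gene, per the file headers. The aligner, the counting tool and its handling of strand were not given in the sources used here. Per the labels' protocols, a SMARTER kit for mRNA was used. GRCm38 and mm10, which are mouse builds, stand in the submitters' processing notes, but the table carries human Ensembl identifiers. Of 58039 identifiers found in GENCODE 29 (GRCh38), 97.6% have the same start and end there, as do 34 of the 44 collagen genes. Lengths of the other collagen genes may differ from the authors' annotation. Gene symbols that the table held as dates, 27 in all and none a collagen, were restored by identifier. RefSeq sequences are on GRCh38.p14.

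Counts were tested with edgeR 4.0.16 (R 4.3.3) over 15144 genes kept by filterByExpr, with TMM scaling, the quasi-likelihood test of DDX18 against control, no covariate, and Benjamini-Hochberg adjustment over all tested genes at 0.05. The step was tested on simulated counts. The fold changes set there were larger than those fitted for most collagen genes, so the simulation does not address differences of that size. Intervals are 95% confidence intervals of the fitted fold change. Deposited FPKM values were used on a log2 scale as an alternative with limma 3.58.1, with pseudocounts of 1 and 0.1. DESeq2 1.42.0, limma-voom, other scalings, other filters on low counts, leaving out the 10 most counted genes or each library in turn, and a replicate block were further alternatives. The longest coding transcript was chosen as the length after seeing the data. Across genes, edgeR put the common biological coefficient of variation at 15.9%. Libraries of a group differed beyond counting noise (chi-square per degree of freedom 11.9 to 18.8), so none was taken as a repeat deposit. Values are given in every library for tested collagen genes with a mean of at least 1 CPM. Of each pathway list the text names up to 3 tested members with the smallest p and the most counted one. CPM is a TMM-scaled count per library. Marker genes, COL6A2, COL8A1, COL5A3 and COL11A2, and the genes of low count, were added after their values were seen.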

Additional observations from a re-analysis of the deposited data

How the results depend on the processing

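No collagen chain gene passed the threshold in any alternative setting: the smallest adjusted p was 0.484 for COL9A3 without control replicate 1, and 0.732 over the settings that keep all libraries. The number of collagen genes with an unadjusted p under 0.05 was 4, and 2 to 4 when a library was left out (2 without DDX18 replicate 2 or control replicate 2). Signs of the 20 log2 fold changes held in all 216 values of the other settings, and 16 of 120 values changed sign when a library was left out, in 10 genes. COL8A1, at -0.39 with all libraries, was the largest of these in size and reached 0.002 without control replicate 3. Their ranges were -0.10 to 0.49 for COL11A2, -0.061 to 0.096 for COL12A1, -0.16 to 0.045 for COL18A1, -0.011 to 0.14 for COL4A1, -0.014 to 0.18 for COL4A2, -0.031 to 0.17 for COL4A6, -0.079 to 0.073 for COL5A1, -0.028 to 0.20 for COL5A3, -0.16 to 0.013 for COL6A1 and -0.80 to 0.002 for COL8A1. The median of fibrillar chains, 0.061, was -0.874 with no expression filter, which adds chains of a few counts, -0.134 at 5 CPM in 3 libraries, which keeps COL1A1 and COL5A1, and -0.092 to 0.072 without a library. That of other chains was -0.042 to 0.114 without a library. Sums by class kept ratios of 0.984 to 1.11 for basement membrane, 0.938 to 1.04 for fibrillar and 0.913 to 0.982 for other chains. Over all genes 8 were called, with 4 under no filter, 40 by DESeq2 and 3 to 14 without a library. The DDX18 log2 fold change was 1.00 to 1.12 without a library, with adjusted p of 0.0544 and 0.0643 without DDX18 replicate 2 and control replicate 2. With the replicate number as a block, 1 gene was called over all genes and DDX18 had 1.06 (adjusted p = 0.153). Same-numbered libraries did not deviate together (correlations of -0.04, 0.02 and -0.09), so the numbers do not pair them. Counting by merged exon length or FPKM, chosen after seeing the data, gave a COL4A2 to COL4A1 level ratio of 2.35 and 2.82 against 3.14. Depth limits the chains with fewer than 65 counts over the 6 libraries. The filter left them out of the test; 36 collagen genes entered it with no filter and 20 to 22 without a library.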
